A study of Mus musculus with 35 samples.

Results

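The genes described here are 8 C-type lectin receptors of the Dectin clusters, namely Clec4a1, Clec4a2, Clec4a3, Clec4d, Clec4e, Clec4n, Clec7a and Clec12a. They were chosen by name, as the rows of the count table whose Ensembl identifier carries one of these symbols, and all 8 were found among 53379 genes. RNA was sequenced from myeloid-derived suppressor cells (MDSC), immature myeloid cells that suppress T cells, of mice bearing the pancreatic tumor line T110299. Each gene was followed across the 2 MDSC subsets, spleen and tumor, and untreated and treated mice, and in whole tumor tissue.

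T110299 is 1 cell line derived from a genetically engineered mouse with pancreatic cancer, in which Ptf1a-Cre acts in the pancreas, and it was implanted into the pancreas of syngeneic female C57BL/6 mice, so that all groups carried the tumor. Treated mice received poly(I:C)c, a double-stranded RNA analog complexed with polyethylenimine, intravenously on days 18 and 20 after tumor induction at 50 µg. The study's general methods name glucose as the control injection, whereas its account of these mice says that controls stayed untreated, as the labels do. PMN-MDSC were sorted as CD11b+Ly6CloLy6G+ cells and M-MDSC as CD11b+Ly6ChiLy6G- cells, each from spleen and from tumor, and bulk tumors of untreated mice were lysed without sorting. Every group held 4 libraries, except 3 each for PMN-MDSC from spleens of treated mice and M-MDSC from tumors of treated mice, the latter after a column with 10 counts was left out. The methods describe wild type mice as age-matched and give 1 age range for them, none by group.

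C-type lectin receptors are membrane proteins of myeloid cells that bind sugars, lipids and products of dying cells. Clec7a (Dectin-1) signals through its own cytoplasmic tail, while Clec4n (Dectin-2), Clec4d (Mcl) and Clec4e (Mincle) pair with the adaptor Fcer1g. All 4 recruit the kinase Syk and, through the Card9, Bcl10 and Malt1 complex, activate NF-kB and inflammatory cytokines. Clec4a2 (Dcir) and Clec12a (Micl) carry inhibitory motifs that recruit phosphatases such as Ptpn6, and Clec4a1 and Clec4a3 are close relatives of Clec4a2.

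All 8 genes lie on chromosome 6 (GRCm38) in 2 stretches. The first, of 368 kb, holds the Clec4 genes, with Clec4a1 at chr6:122921848-122934619, Clec4a3 at chr6:122952515-122969875, Clec4a2 at chr6:123106428-123143999, Clec4n at chr6:123229843-123247021 and Clec4d at chr6:123262111-123275265 on the plus strand and Clec4e at chr6:123281789-123289870 on the minus strand. The second, of 130.1 kb, lies 6053 kb further on and holds Clec12a at chr6:129342691-129365303 on the plus strand and Clec7a at chr6:129461591-129472779 on the minus strand. No exon of the 8 genes overlaps an exon of another annotated gene. Clec4a1, Clec4a2 and Clec4a3 are similar in sequence, so that the counting may have split some of their reads, and their values are less certain for that reason. GENCODE lists Clec7a as a polymorphic pseudogene, a class for genes intact in some strains only, and the others as protein coding.

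The 250 bases before the start of transcription were taken from RefSeq (GRCm38.p6), which had such windows for 7 of the 8 genes, all but Clec4n. They are shown for the 4 of these 7 genes with the largest log2 differences called between sorted groups, to show what their promoters hold in common. Sequences run 5′ to 3′ on the strand of the gene, and capitals mark matches to GAGGAA (an ETS core as bound by PU.1), TTGCNNAA (C/EBP), TGANTCA (AP-1), ACGTG (hypoxia response element core), an NF-kB motif or the element of interferon-stimulated genes, searched on both strands. Clec4a1 lies at chr6:122921598-122921847 on the plus strand, Clec4d at chr6:123261857-123262106 on the plus strand, Clec4e at chr6:123289872-123290121 on the minus strand and Clec7a at chr6:129472780-129473029 on the minus strand.
Clec4a1: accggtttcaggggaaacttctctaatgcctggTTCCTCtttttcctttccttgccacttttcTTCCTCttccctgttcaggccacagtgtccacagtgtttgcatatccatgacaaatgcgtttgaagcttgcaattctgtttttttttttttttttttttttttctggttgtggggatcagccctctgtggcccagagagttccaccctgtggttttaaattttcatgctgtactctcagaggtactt
Clec4d: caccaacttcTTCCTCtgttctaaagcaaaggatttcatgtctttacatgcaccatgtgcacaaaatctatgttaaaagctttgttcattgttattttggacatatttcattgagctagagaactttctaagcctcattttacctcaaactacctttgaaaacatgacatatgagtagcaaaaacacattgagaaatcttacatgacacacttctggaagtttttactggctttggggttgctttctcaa
Clec4e: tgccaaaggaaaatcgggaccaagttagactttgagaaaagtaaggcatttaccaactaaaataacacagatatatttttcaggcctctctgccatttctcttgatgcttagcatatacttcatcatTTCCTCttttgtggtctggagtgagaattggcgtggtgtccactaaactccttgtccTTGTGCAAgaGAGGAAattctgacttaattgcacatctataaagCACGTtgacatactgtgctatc
Clec7a: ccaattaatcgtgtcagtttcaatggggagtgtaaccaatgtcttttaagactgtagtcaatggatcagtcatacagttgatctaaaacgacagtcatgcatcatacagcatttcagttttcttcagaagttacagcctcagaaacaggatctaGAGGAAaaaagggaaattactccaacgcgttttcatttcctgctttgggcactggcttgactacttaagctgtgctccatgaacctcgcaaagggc

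A GAGGAA match was present in 6 of the 7 genes (Clec4a1, Clec4a3, Clec4d, Clec4e, Clec7a and Clec12a), and in 7 of the 9 windows of the 7 genes, since Clec4a3 and Clec7a have 2 each, against 23.3% of 32851 RefSeq windows of the same length. TTGCNNAA occurred in Clec4e and Clec12a, against 9.56% of all windows. Clec4e also held ACGTG, found in 16.6% of windows, and Clec12a held TGANTCA, found in 6.75%. None of the printed matches overlap each other. The NF-kB and interferon motifs were found in none of the 7 genes, against 0.356% and 2.98% of windows. These are matches of letters within these windows only.

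The sorted libraries held between 793070 and 4357105 counts and the bulk tumors between 3771590 and 8886115. Levels are given as CPM, counts scaled to the depth of each library, after TMM scaling. Every gene had at least 1 count in all 34 libraries, and the lowest count in an MDSC library was 7, for Clec4n. Differences are log2 fold changes with their standard errors from edgeR's quasi-likelihood F-test, and a gene is called where the Benjamini-Hochberg adjusted p over all genes tested was under 0.05. The columns are tied to groups but not to mice, so the p-values measure the spread between libraries. Libraries of 1 mouse may enter both sides of a comparison of organs or subsets and were treated as independent.

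The labels were checked against marker genes before the comparisons. Libraries labelled PMN-MDSC from untreated tumors held little neutrophil RNA. Ly6g, the antigen used in their sort, lay between 0 and 8.98 CPM, against 37.5 to 101 CPM in PMN-MDSC from untreated spleens, and the summed level of 11 neutrophil genes was 1464 to 5139 CPM against 26705 to 51532 CPM. The summed level of 10 macrophage genes was 9786 to 12774 CPM in these tumor libraries, 602 to 1770 CPM in PMN-MDSC from untreated spleens and 3081 to 7966 CPM in M-MDSC from untreated tumors. One M-MDSC library from a treated tumor stood apart, with Ly6c2 at 2.72 CPM and a macrophage sum of 26706 CPM, and 1 M-MDSC library from a treated spleen had a B cell sum of 11775 CPM, against 116 to 364 CPM in the other 3. Of 10 interferon-stimulated genes, those called higher in treated mice numbered 9 in splenic PMN-MDSC, 10 in splenic M-MDSC, 9 in tumor PMN-MDSC and 5 in tumor M-MDSC.

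The repertoire of the 8 lectins differed between the subsets in untreated spleen. Because a longer gene collects more reads, genes are compared with each other per kilobase of exon (FPKM). The length merges all annotated exons of a gene, from 1327 bases for Clec4a3 to 5528 for Clec12a. Ranks and shares between genes depend on it, since the transcripts present may be shorter. In PMN-MDSC from untreated spleen, Clec7a was the highest at 326 ± 75.1 FPKM (SD, n = 4), followed by Clec4d at 198 ± 54.9, Clec4n at 131 ± 8.60 and Clec4e at 42.1 ± 12.4 FPKM (SD, n = 4). In M-MDSC from untreated spleen the order was Clec7a at 113 ± 18.4, Clec4a1 at 85.3 ± 3.81, Clec4a3 at 72.6 ± 3.76 and Clec4n at 38.6 ± 14.5 FPKM (SD, n = 4), with Clec4d last at 2.91 ± 0.637 FPKM. The 4 Syk-coupled receptors together made up 82.5% to 91.1% of the FPKM of the 8 genes in untreated splenic PMN-MDSC and 39.1% to 50.1% in untreated splenic M-MDSC. In untreated tumor their share was 86.2% to 90.6% in PMN-MDSC and 74.3% to 81.1% in M-MDSC, so that the ranges of the subsets lay closer together than in spleen.

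**Figure D1:**
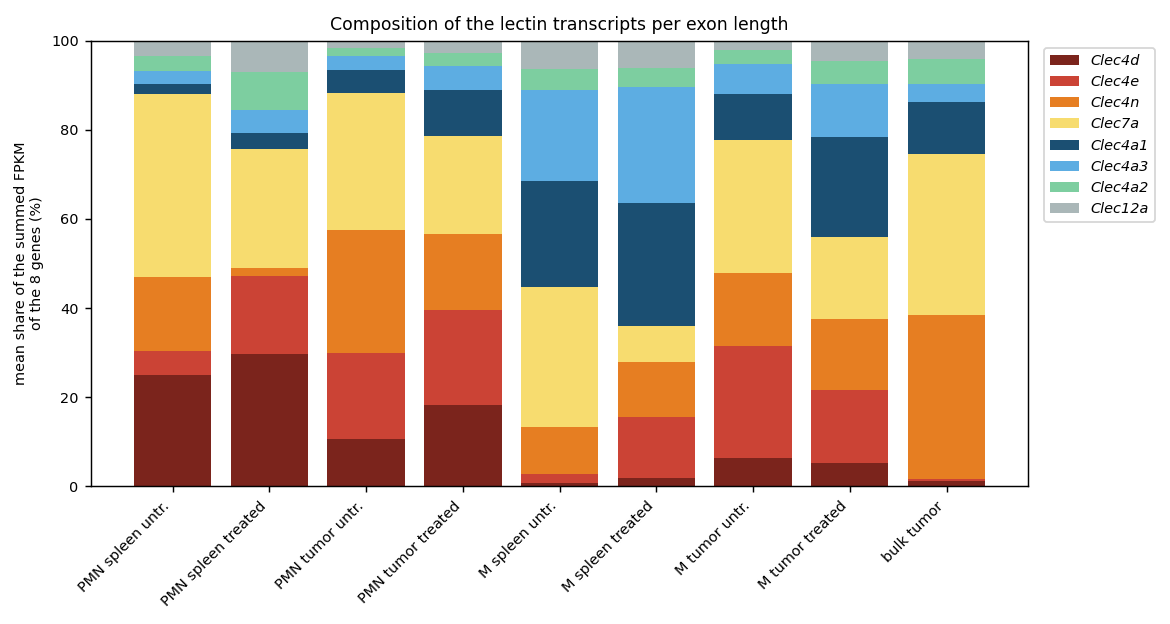
Stacked bars give the mean share of each gene in the summed FPKM of the 8 lectins, in percent, for the 9 groups (untr., untreated; treated, poly(I:C)c). Clec4d made up 24.99% of the sum in untreated splenic PMN-MDSC and 0.815% in untreated splenic M-MDSC, and Clec4n 16.7% in untreated and 1.95% in treated splenic PMN-MDSC.

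The summed FPKM of the 8 genes was 647 to 855 in PMN-MDSC from untreated spleen, 825 to 1039 in PMN-MDSC from untreated tumor, 318 to 387 in M-MDSC from untreated spleen and 555 to 751 in M-MDSC from untreated tumor. In bulk tumor it was 18.7 to 33.9. Whether a lower level in a sample reflects fewer cells of a type or less RNA per cell cannot be told apart in such data.

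M-MDSC and PMN-MDSC were compared within untreated spleen. Of the 8 lectins, 6 were called, 2 higher and 4 lower in M-MDSC, where 64.4% of all 8579 genes tested were called, so that the share of lectins called was near that of all genes. Clec4d, the Mcl receptor, lay at 234, 282, 311 and 439.9 CPM in PMN-MDSC and at 3.77, 4.32, 4.40 and 6.12 CPM in M-MDSC. The groups were far apart, and Clec4d was 59.5-fold lower in M-MDSC (log2 fold change -5.90, SE 0.22, adjusted p = 4.13e-07). Clec4e, the Mincle receptor, lay at 140, 174, 257 and 264 CPM in PMN-MDSC and at 29.8, 33.1, 36.7 and 37.3 CPM in M-MDSC, also without overlap (log2 fold change -2.40, SE 0.20, adjusted p = 9.56e-06). Clec4n and Clec7a were lower in M-MDSC as well, with log2 fold changes of -1.57 (SE 0.26, adjusted p = 0.000626) and -1.33 (SE 0.20, adjusted p = 0.000371).

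The Dcir relatives went the other way. Clec4a1 lay at 16.1, 20.1, 22.2 and 50.4 CPM in PMN-MDSC and at 125, 133, 135 and 139 CPM in M-MDSC from untreated spleen. One PMN-MDSC library was higher than the other 3, yet below all M-MDSC libraries (log2 fold change 2.42, SE 0.34, adjusted p = 0.000242). Clec4a3 lay at 18.1 to 40.6 CPM in PMN-MDSC and 90.4 to 101 CPM in M-MDSC (log2 fold change 1.97, SE 0.26, adjusted p = 0.000144). The inhibitory receptors Clec4a2 and Clec12a were not called, with log2 fold changes of -0.42 (SE 0.19, adjusted p = 0.0723) and -0.06 (SE 0.21, adjusted p = 0.807). Between the same groups 11 of 11 neutrophil genes and 5 of 9 macrophage genes tested were called lower in M-MDSC, the erythroid sum was 70.8 to 193 CPM in PMN-MDSC and 23.96 to 47.8 CPM in M-MDSC, and their part in the differences was not tested.

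The subsets were also compared in untreated tumor. There 3 lectins were called by edgeR, all lower in M-MDSC, against 13.0% of 7623 genes, 7.25% in that direction. DESeq2 called more of the lectins, as counted in the closing section. Clec4n, the Dectin-2 receptor, lay at 297, 356, 384 and 426 CPM in PMN-MDSC and at 112, 134, 174 and 194 CPM in M-MDSC, so that the groups did not overlap (log2 fold change -1.27, SE 0.19, adjusted p = 0.000963). Clec4d lay at 95.6, 173, 182 and 194 CPM in PMN-MDSC and 34.8, 61.3, 83.3 and 99.0 CPM in M-MDSC, so that the highest M-MDSC library reached the lowest PMN-MDSC one (log2 fold change -1.22, SE 0.30, adjusted p = 0.0196). Clec7a was called at a log2 fold change of -0.57 (SE 0.17, adjusted p = 0.0428). Clec4e had a log2 fold change of -0.16 (SE 0.22, adjusted p = 0.693). Clec4a1 and Clec4a3 leaned toward M-MDSC without a call, with log2 fold changes of 0.48 (SE 0.16, adjusted p = 0.0682) and 0.64 (SE 0.20, adjusted p = 0.0554). The calls of Clec4d and Clec7a were each lost when single libraries were left out, and over all alternatives their adjusted p reached 0.0749 and 0.567. The macrophage sum was higher in these PMN-MDSC libraries than in the M-MDSC ones. The neutrophil sum was 1464 to 5139 CPM in PMN-MDSC and 262 to 795 CPM in M-MDSC, and the monocyte sum 4606 to 8397 and 9092 to 11886 CPM. In M-MDSC 5 of 10 neutrophil genes tested were called lower and 0 higher, and 5 of 8 monocyte genes higher and 1 lower. The part of these lists in the differences was not tested.

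**Figure D2:**
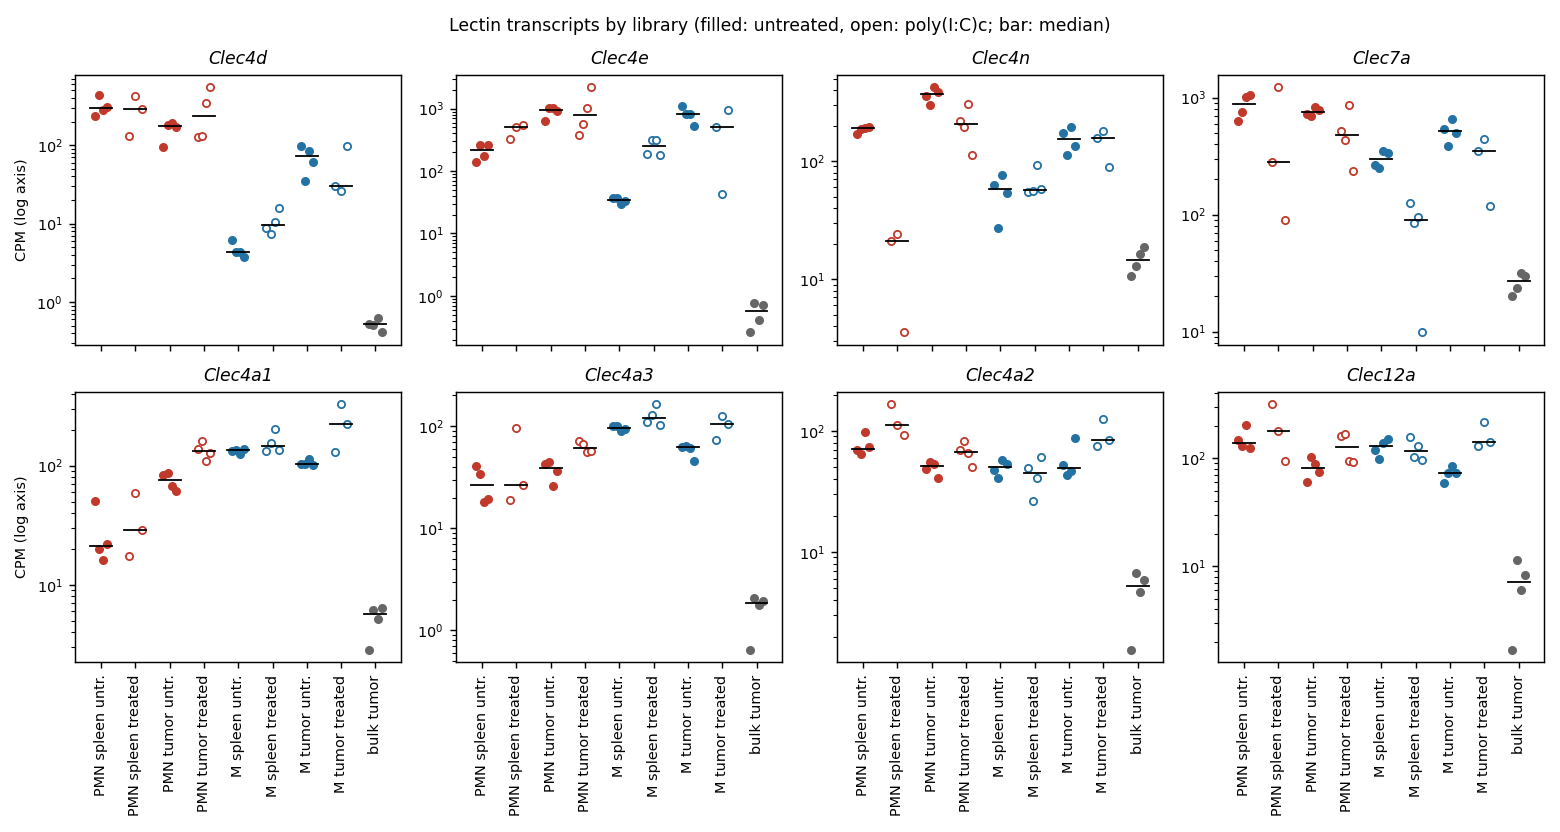
Each point is 1 library, with CPM after TMM scaling on a log axis for the 8 lectins in the 9 groups (red, PMN-MDSC; blue, M-MDSC; grey, bulk tumor; filled, untreated; open, treated with poly(I:C)c; bars, medians). Clec4d and Clec4e in M-MDSC were low in untreated spleen and higher in tumor, and Clec4n in PMN-MDSC from spleen was lowest in the treated libraries.

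Tumor and spleen were then compared within each subset of untreated mice, to ask how the organ goes with the level of each receptor. In M-MDSC, 7 of the 8 lectins were called, 4 higher and 3 lower in tumor, where 28.4% of 8298 genes were called. Clec4e lay at 527, 809, 832 and 1105 CPM in tumor, against 29.8 to 37.3 CPM in spleen, and was 24.03-fold higher (log2 fold change 4.59, SE 0.22, adjusted p = 6.71e-08). Clec4d lay at 34.8 to 99.0 CPM in tumor, against 3.77 to 6.12 CPM in spleen (log2 fold change 3.96, SE 0.33, adjusted p = 4.22e-06). Every tumor library was above every spleen library for both genes. Clec4n was also higher, at 112 to 194 CPM against 27.1 to 75.5 CPM (2.82-fold, adjusted p = 0.00184), as was Clec7a, at 382 to 658 CPM against 251 to 348 CPM (log2 fold change 0.80, SE 0.18, adjusted p = 0.00575).

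The 4 receptors higher in tumor M-MDSC were the 4 Syk-coupled ones, while 3 of the other 4 were lower. Clec12a lay at 58.2 to 84.1 CPM in tumor and 99.0 to 149.7 CPM in spleen (log2 fold change -0.82, SE 0.17, adjusted p = 0.00343). Clec4a3 lay at 45.96 to 63.7 CPM and 90.4 to 101 CPM (log2 fold change -0.70, SE 0.13, adjusted p = 0.00199). Clec4a1 fell by 0.33 on the log2 scale (SE 0.11, adjusted p = 0.0467), a call lost when any of 7 single libraries was left out, and Clec4a2 was not called (log2 fold change 0.15, SE 0.22, adjusted p = 0.643). In 1 fit over 34 libraries the calls of Clec7a, Clec4a3 and Clec12a were lost as well (adjusted p = 0.313, 0.115 and 0.0849). The macrophage sum was 3081 to 7966 CPM in these tumor libraries and 701 to 979 CPM in the spleen ones, and the neutrophil sum 262 to 795 and 3477 to 8455 CPM. The monocyte sum was 9092 to 11886 CPM in tumor and 5937 to 8293 CPM in spleen. However, of 8 monocyte genes tested, 2 were called higher and 1 lower in tumor, with a median log2 fold change of -0.09. The part of the 3 lists in the differences was not tested.

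In PMN-MDSC from untreated mice, 5 lectins were called between tumor and spleen, 3 higher and 2 lower in tumor, where 59.1% of 7971 genes were called. Clec4e lay at 641, 916, 1015 and 1032 CPM in tumor and 140 to 264 CPM in spleen (log2 fold change 2.28, SE 0.24, adjusted p = 3.77e-05). Clec4n lay at 297 to 426 CPM in tumor and 168 to 196 CPM in spleen (log2 fold change 1.14, SE 0.16, adjusted p = 0.00017), and Clec4a1 at 60.8 to 86.9 CPM and 16.1 to 50.4 CPM (log2 fold change 1.57, SE 0.34, adjusted p = 0.00281). In each of the 3 genes all tumor libraries were above all spleen libraries. Clec4d, at 95.6 to 194 CPM in tumor and 234 to 439.9 CPM in spleen, and Clec12a, at 59.9 to 101 CPM and 124 to 200 CPM, were lower in tumor (log2 fold changes -0.81, SE 0.25, adjusted p = 0.0156, and -0.74, SE 0.22, adjusted p = 0.0125). Thus Clec4d was lower in tumor than in spleen in PMN-MDSC and higher in M-MDSC; the difference between these 2 effects was not tested. The neutrophil sum fell and the macrophage sum rose between the same groups, as given above. The monocyte sum was 4606 to 8397 CPM in tumor and 1657 to 2664 CPM in spleen, with 5 of 8 genes called higher and 2 lower. The epithelial sum was 123 to 740 CPM in tumor and 19.3 to 48.2 CPM in spleen, and the erythroid sum 0 to 17.7 and 70.8 to 193 CPM. The part of all these sums in the lectin differences was not tested.

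**Figure D3:**
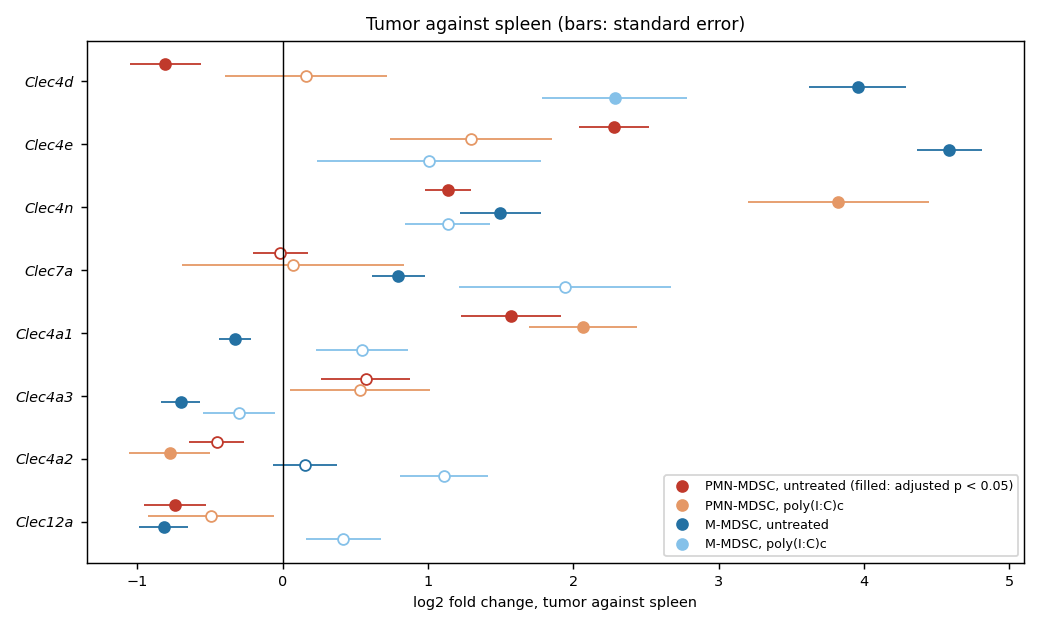
Log2 fold changes between tumor and spleen for the 8 lectins in untreated and treated PMN-MDSC and M-MDSC, with standard errors, and filled points where adjusted p was under 0.05 (edgeR's quasi-likelihood F-test). In untreated M-MDSC, Clec4e at 4.59 and Clec4d at 3.96 lie farthest to the right.

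Tumor and spleen were also compared in treated mice. In PMN-MDSC 3 were called against 53.6% of 8031 genes, with Clec4n 14.2-fold higher (log2 fold change 3.82, SE 0.62, adjusted p = 0.00126), Clec4a1 higher (2.07, SE 0.37, adjusted p = 0.002) and Clec4a2 lower (-0.78, SE 0.28, adjusted p = 0.0411) in tumor. The macrophage sum was 8713 to 18001 CPM in these tumor and 119 to 287 CPM in these spleen libraries, with 9 of 9 genes tested called higher in tumor, 10 of 11 neutrophil genes were called lower, and their part in the differences was not tested. In M-MDSC 1 was called against 5.87% of 9026 genes, namely Clec4d, which lay at 26.4, 30.5 and 98.7 CPM in tumor and 7.44, 8.73, 10.6 and 15.9 CPM in spleen (log2 fold change 2.28, SE 0.50, adjusted p = 0.037). Clec4e had a log2 fold change of 1.009 (SE 0.77, adjusted p = 0.472), with tumor libraries at 42.9, 503 and 956 CPM, and without the library that stood apart, which held the 42.9 CPM, it was 1.56 (SE 0.33, adjusted p = 0.0481). The calls of Clec4a2 in PMN-MDSC and Clec4d in M-MDSC were lost when single libraries were left out, with adjusted p up to 0.128 and 0.125. In M-MDSC the count was 4 in 1 fit over 34 libraries and 3 with low counts kept. Treated M-MDSC had a macrophage sum of 5276 to 26706 CPM in tumor and 433 to 793 CPM in spleen, with 8 of 10 macrophage genes called higher, and its part was not tested.

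Between the subsets of treated mice, 7 lectins were called in spleen against 61.2% of 8153 genes, 3 higher and 4 lower in M-MDSC. Clec4n, lower in M-MDSC of untreated spleen, was higher in M-MDSC of treated spleen (log2 fold change 2.19, SE 0.54, adjusted p = 0.00842), while Clec4d was lower in both (-4.55, SE 0.43, adjusted p = 0.000124). Of 9 macrophage genes tested, 5 were called lower and 0 higher in M-MDSC of untreated spleen, and 0 lower and 7 higher in M-MDSC of treated spleen, and their part in the Clec4n values was not tested. Without the library with a high B cell sum, the calls of Clec4e and Clec7a there were lost (log2 fold changes -0.60, adjusted p = 0.0983, and -2.20, adjusted p = 0.0518). Clec7a also lost its call when any one of 5 other libraries was left out and with low counts kept, and without the PMN-MDSC library at 1235 CPM its log2 fold change was -1.11 (adjusted p = 0.301). Clec4e also lost its call when any one of 3 other libraries was left out and in 1 fit over 34 libraries. Over all alternatives adjusted p reached 0.146 for Clec4e and 0.101 for Clec4a3, whose call was lost when any one of 3 libraries was left out and with low counts kept. In treated tumor 0 of the 8 were called by edgeR and 1 by DESeq2, against 0.38% and 3.36% of 8955 genes, and 3 had an unadjusted p under 0.05. Clec4d had the largest difference there, with a log2 fold change of -2.48 (SE 0.69, adjusted p = 0.233).

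The effect of poly(I:C)c was read within each subset and organ. In M-MDSC from spleen, Clec4e lay at 179, 186, 314 and 315 CPM in treated mice and 29.8, 33.1, 36.7 and 37.3 CPM in untreated mice. The groups did not overlap, and Clec4e rose 7.09-fold (log2 fold change 2.83, SE 0.21, adjusted p = 4.06e-05), one of 2 lectins called of 7 tested, where 19.6% of 8827 genes were called. Clec7a lay at 9.84, 84.8, 96.1 and 126 CPM in treated and 251, 264, 334 and 348 CPM in untreated mice, and fell by 1.95 on the log2 scale (SE 0.56, adjusted p = 0.0415). The 9.84 CPM belonged to the library with a high B cell sum, without which the log2 fold change was -1.56 (SE 0.19, adjusted p = 0.000505). The Clec7a call was lost when any of 6 other libraries was left out, and over all alternatives its adjusted p reached 0.19, whereas that of Clec4e was kept in every alternative. Between the same groups the monocyte sum was 5937 to 8293 CPM in untreated and 4213 to 5168 CPM in treated libraries, with 2 of 8 genes called higher and 3 lower. The stroma sum, of fibroblast and endothelial genes, was 23.9 to 32.5 and 115 to 273 CPM, with 1 of 2 genes tested called higher. Col1a1, Col1a2, Col3a1 and Dcn, however, had 3 counts or fewer in every treated library. The erythroid sum was 23.96 to 47.8 CPM in untreated and 0.909 to 3.02 CPM in treated libraries. The part of these lists in the differences was not tested.

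The other lectins of splenic M-MDSC were not called. Clec4d, with 11 to 20 counts per untreated and 26 to 42 counts per treated library, was under the minimum of 25 counts on average and was not tested. Its level was 3.77 to 6.12 CPM in untreated and 7.44 to 15.9 CPM in treated mice, and with low counts kept its log2 fold change was 1.19 (SE 0.34, adjusted p = 0.0143). Its adjusted p was 0.145 in 1 fit over 34 libraries and 0.0345 to 0.0566 without each of 3 single untreated libraries. Clec4a1, Clec4a2, Clec4a3, Clec4n and Clec12a had log2 fold changes between -0.20 and 0.36. Without the library with a high B cell sum, Clec4a3 had a log2 fold change of 0.47 (SE 0.14, adjusted p = 0.0471).

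Among splenic PMN-MDSC, 2 of 8 lectins were called, in opposite directions, against 11.6% of 7261 genes. Clec4n lay at 3.53, 20.9 and 24.3 CPM in treated and 168, 188, 192 and 196 CPM in untreated mice, 11.4-fold lower after treatment (log2 fold change -3.51, SE 0.51, adjusted p = 0.00557). The untreated libraries lay close together and far above all treated ones. Clec4e lay at 330, 505 and 541 CPM in treated and 140, 174, 257 and 264 CPM in untreated mice (log2 fold change 1.19, SE 0.25, adjusted p = 0.0211). Clec7a ranged from 89.9 to 1235 CPM in the 3 treated libraries, on both sides of the untreated ones (log2 fold change -0.67, SE 0.69, adjusted p = 0.584). Without the library at 1235 CPM its log2 fold change was -2.10 (SE 0.50, adjusted p = 0.0477).

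Markers of other cells moved between the same PMN-MDSC groups. The macrophage sum was 119 to 287 CPM in treated and 602 to 1770 CPM in untreated libraries, with 8 of 9 macrophage genes tested called lower. Ly6g was 360.4 to 470.1 CPM in treated and 37.5 to 101 CPM in untreated libraries, and 5 of 11 neutrophil genes were called higher. The erythroid sum was 0.505 to 10.4 CPM in treated and 70.8 to 193 CPM in untreated libraries, and the dendritic cell sum 3.53 to 10.1 and 39.8 to 144 CPM. The monocyte sum was 2768 to 6789 CPM in treated and 1657 to 2664 CPM in untreated libraries. Yet of 6 monocyte genes tested, 1 was called higher and 3 lower with treatment, with a median log2 fold change of -2.84. The part of these changes in the Clec4n and Clec4e differences was not tested. The Clec4e call was lost when any of 4 single libraries was left out, and over all alternatives its adjusted p reached 0.121, while that of Clec4n was kept in every alternative other than an adjusted p under 0.001.

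**Figure D4:**
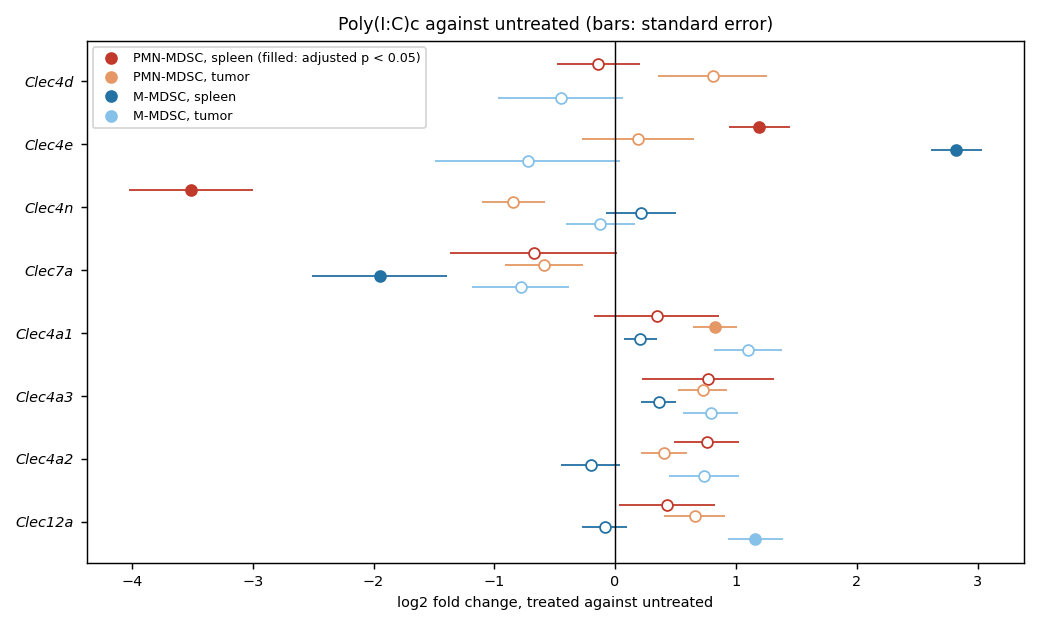
Log2 fold changes between treated and untreated mice for the 8 lectins in the 4 sorted populations, with standard errors, and filled points where adjusted p was under 0.05 (edgeR's quasi-likelihood F-test). Clec4e at 2.83 in M-MDSC from spleen and Clec4n at -3.51 in PMN-MDSC from spleen lie farthest from 0, and Clec4d in M-MDSC from spleen was not tested.

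In tumor, 1 lectin was called with treatment in each subset. In PMN-MDSC, Clec4a1 alone was called, against 3.36% of 8308 genes, at 110.4, 129, 137 and 162 CPM in treated and 60.8, 67.9, 82.7 and 86.9 CPM in untreated mice (log2 fold change 0.83, SE 0.18, adjusted p = 0.034). In M-MDSC, Clec12a alone was called, against 2.88% of 8360 genes, at 129, 141 and 216 CPM in treated and 58.2, 72.2, 72.8 and 84.1 CPM in untreated mice (log2 fold change 1.16, SE 0.23, adjusted p = 0.0308). Treated and untreated libraries did not overlap for either gene, and without the M-MDSC library that stood apart Clec12a had a log2 fold change of 0.90 (SE 0.20, adjusted p = 0.0344). Both calls were lost when any of several other single libraries was left out, and over all alternatives adjusted p reached 0.114 for Clec4a1 and 0.11 for Clec12a. Clec4a1 in M-MDSC had a similar size (log2 fold change 1.10, SE 0.28) with an adjusted p of 0.0685, and Clec4a3 had log2 fold changes of 0.73 (SE 0.20, adjusted p = 0.0809) in PMN-MDSC and 0.79 (SE 0.22, adjusted p = 0.0881) in M-MDSC. DESeq2 called 3 lectins in each subset, against 7.38% and 9.53% of all genes. The monocyte sum was 1766 to 3257 CPM in treated and 4606 to 8397 CPM in untreated tumor PMN-MDSC, and 2379 to 5454 CPM and 9092 to 11886 CPM in tumor M-MDSC. Its genes did not all fall. Of 8 tested, 2 were called higher and 2 lower in PMN-MDSC (median log2 fold change -0.38). In M-MDSC 0 of 8 were called higher and 1 lower (median 0.29). In tumor M-MDSC the stroma sum was 115 to 192 CPM in treated and 21.7 to 72.8 CPM in untreated libraries, the epithelial sum 69.4 to 97.2 and 101 to 323 CPM and the macrophage sum 5276 to 26706 and 3081 to 7966 CPM. The part of these sums in the differences was not tested.

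None of the 4 Syk-coupled receptors was called by edgeR with treatment in tumor, although with low counts kept adjusted p was 0.00615 for Clec4n in PMN-MDSC and 0.0399 for Clec7a in M-MDSC, and DESeq2 also called the former. Clec4e in M-MDSC was 42.9, 503 and 956 CPM in treated and 527 to 1105 CPM in untreated mice (log2 fold change -0.72, SE 0.77, adjusted p = 0.668). In PMN-MDSC the 4 treated libraries were spread from 377 to 2239 CPM, around the untreated ones at 641 to 1032 CPM (log2 fold change 0.19, SE 0.46, adjusted p = 0.871). Clec4n had a log2 fold change of -0.84 in PMN-MDSC (SE 0.26, adjusted p = 0.122) and Clec7a one of -0.59 (SE 0.32, adjusted p = 0.366). The Syk-coupled share of the FPKM was 45.2% to 66.0% in treated and 74.3% to 81.1% in untreated M-MDSC from tumor, and 70.0% to 86.4% and 86.2% to 90.6% in PMN-MDSC.

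Whether treatment effects differed between organs or subsets was tested with interaction terms. For Clec4n in PMN-MDSC, the effect was -3.51 in spleen and -0.84 in tumor, a difference of 2.69 on the log2 scale (SE 0.57, adjusted p = 0.0198), the only lectin of 8 called against 3.5% of 8047 genes. In the same test 9 of 10 macrophage genes were called higher, with a median of 2.76, and their part was not tested. In spleen, the effect on Clec4n was 3.66 higher (SE 0.58, adjusted p = 0.0028) and that on Clec4e 1.55 higher (SE 0.35, adjusted p = 0.0135) in M-MDSC than in PMN-MDSC, with 2 of 8 called against 10.9% of 8417 genes. The Clec4e call was lost in 1 fit over 34 libraries (adjusted p = 0.131). Of 9 macrophage genes tested, 8 were called higher in this test, with a median of 3.36, and their part was not tested. For M-MDSC between tumor and spleen 0 of 8 were called by edgeR and 2 by DESeq2, and 5 had an unadjusted p under 0.05, against 0.79% and 3.52% of 8730 genes called by these tools. Clec4e had the largest difference of these, -3.53 (SE 0.86, adjusted p = 0.072), which was -2.99 (SE 0.43, adjusted p = 0.00649) without the library that stood apart. Between the subsets in tumor 0 of 8 were called by either tool, and 0 had an unadjusted p under 0.05, against 0.0239% and 0.262% of 8385 genes called by edgeR and DESeq2.

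In bulk tumor all 8 lectins were lower than in the sorted cells, in both comparisons, where 69.5% of 11138 genes were called against PMN-MDSC and 69.2% of 11022 genes against M-MDSC, with 33.3% and 31% called lower. Clec7a, the gene with the highest CPM, lay at 20.1, 23.5, 30.1 and 31.9 CPM in bulk tumor, against 698 to 824 CPM in tumor PMN-MDSC (log2 fold change -5.06, SE 0.21, adjusted p = 6.02e-09). Clec4e lay at 0.26, 0.417, 0.717 and 0.774 CPM, from 2 to 7 counts per library, and Clec4d at 0.41 to 0.626 CPM, from 2 to 6 counts. Their log2 fold changes against tumor PMN-MDSC were -10.91 (SE 0.34, adjusted p = 2.04e-09) and -8.43 (SE 0.32, adjusted p = 3.94e-09), and at so few counts the size is imprecise. The other genes had log2 fold changes between -4.85 and -3.65 against PMN-MDSC, that of Clec4a3 from 5 to 19 counts per bulk library. Per kilobase, Clec4n at 10.3 ± 2.47 and Clec7a at 10.0 ± 2.10 FPKM (SD, n = 4) were the highest in bulk tumor and did not differ beyond their spread. The neutrophil sum in bulk tumor was 10.3 to 27.6 CPM, with Ly6g at 0 in all 4 libraries, the macrophage sum 1301 to 1830 CPM and the epithelial sum 4419 to 6523 CPM, and their part in the difference was not tested.

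The lectins were compared with all other genes by the likeness of their levels over the 30 MDSC libraries, as Pearson's r of log2(CPM + 1) among 8528 genes. Among the genes most like Clec4d were Mxd1 (r = 0.96) and Ccr1, a chemokine receptor (r = 0.96). Clec4e was most like Trib1 (r = 0.91), the histone gene H3f3b (r = 0.91) and Nfkbia, the NF-kB inhibitor (r = 0.91), and Clec4n like Rcbtb2 (r = 0.91), Fchsd2 (r = 0.87) and Baiap2 (r = 0.87). Clec4a1 was most like Ehd4 (r = 0.94), Lat2 (r = 0.93) and Ms4a6c (r = 0.92), and Clec4a3 like BC147527 (r = 0.92), Ms4a6b (r = 0.89) and Ms4a4c (r = 0.87), the last a gene of the monocyte marker list. Clec7a was most like Dip2b (r = 0.85), Rab11fip5 (r = 0.85) and Arrdc4 (r = 0.85). Clec4a2, most like Trp53inp2 (r = 0.80), Tnfsf13b (r = 0.76) and Rnf130 (r = 0.75), and Clec12a, most like Fam53b (r = 0.78), Cybb (r = 0.75) and Nfic (r = 0.73), had lower values. Among the 8 lectins, Clec4a1 and Clec4a3 were the most alike (r = 0.87), followed by Clec4d with Clec4e (r = 0.67) and Clec4a2 with Clec12a (r = 0.63). The points are libraries of 8 groups that share subset, organ and treatment, so that r mostly describes differences between groups.

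The other parts of the pathway were described from lists of 15 signalling genes and 13 genes downstream of Card9 and NF-kB. Of the signalling genes, 2 of 15 rose and 0 fell between spleen and tumor in untreated M-MDSC, and 2 rose and 10 fell in untreated PMN-MDSC, with medians of 0.06 and -0.68 (log2) beside 0.02 and 0.01 over all genes tested, of which 28.4% and 59.1% were called. The genes that rose included Malt1, the protease of the Card9 complex, at 421 ± 78.3 CPM in tumor and 148 ± 16.01 CPM in spleen M-MDSC (SD, n = 4; log2 fold change 1.51, adjusted p = 2.53e-05). With treatment, Malt1 fell in PMN-MDSC from tumor, from 418 ± 145 to 129.7 ± 20.4 CPM (SD, n = 4 each; log2 fold change -1.72, adjusted p = 0.00386), the only signalling gene called there, against 3.36% of all genes. In spleen, 2 of 14 were called in treated M-MDSC, both higher, against 19.6% of all genes, among them Ptpn6 (log2 fold change 0.57, adjusted p = 0.0497), while in PMN-MDSC 0 of 14 were called by edgeR, against 11.6% of all genes, and 1 had an unadjusted p below that threshold. Among tumor M-MDSC 0 of 15 were called with treatment, against 2.88% of all genes, and 5 had an unadjusted p under 0.05.

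Of the downstream genes, 9 of 11 tested rose and 0 fell from spleen to tumor in both subsets of untreated mice, where 28.4% of all genes were called in M-MDSC and 59.1% in PMN-MDSC. The macrophage sum was higher in tumor in both, as given above, and its part was not tested. In M-MDSC, Il1b rose from 57.1 ± 9.97 to 4813 ± 1159 CPM (SD, n = 4 each; log2 fold change 6.402, adjusted p = 1.85e-08). With treatment, Nfkbia rose in splenic PMN-MDSC at 149.6 ± 48.6 CPM without (SD, n = 4) and 379.5 ± 121 CPM with it (SD, n = 3; log2 fold change 1.41, adjusted p = 0.0171) and in splenic M-MDSC from 93.8 ± 12.8 to 249 ± 50.3 CPM (SD, n = 4 each; log2 fold change 1.38, adjusted p = 0.000438). Tnf rose in splenic M-MDSC from 13.7 ± 4.67 to 70.7 ± 43.0 CPM (SD, n = 4 each; log2 fold change 2.35, adjusted p = 0.00474), and Ptgs2 fell in splenic PMN-MDSC (log2 fold change -3.90, adjusted p = 0.00933). In tumor the calls were all toward lower levels, for 3 of 11 genes tested among PMN-MDSC and 2 of 13 among M-MDSC, against 3.36% and 2.88% of all genes called. These were Cxcl1 and Il6 (log2 fold changes -1.41 and -2.07, adjusted p = 0.0338 and 0.0435) and Ptgs2, named after its values were seen, in PMN-MDSC and Il1b and Ptgs2 in M-MDSC (-2.15 and -2.10, adjusted p = 0.0111 and 0.0266).

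Other lectins were read from a list of 8 neighbours in the same gene clusters and a list of 10 further myeloid C-type lectins. Of the neighbours only Olr1, the receptor for oxidized low-density lipoprotein, passed the count minimum. It rose from spleen to tumor, from 25.6 ± 16.03 to 207 ± 49.9 CPM in untreated PMN-MDSC (SD, n = 4 each; log2 fold change 3.16, adjusted p = 8.03e-05) and from 18.0 ± 8.19 to 95.2 ± 26.2 CPM in untreated M-MDSC (SD, n = 4 each; log2 fold change 2.40, adjusted p = 0.000254). Among the further lectins, Mrc1, the macrophage mannose receptor, rose from spleen to tumor in untreated PMN-MDSC (log2 fold change 3.05, adjusted p = 9.71e-05) and untreated M-MDSC (3.76, adjusted p = 1.94e-06). Ly75 fell from spleen to tumor in untreated PMN-MDSC (log2 fold change -3.08, adjusted p = 2.8e-05). Of 7 tested there, 4 rose and 1 fell, against 59.1% of all genes called. Of 6 tested in untreated M-MDSC, 2 rose and 1 fell, against 28.4%. With treatment, Mrc1 fell in PMN-MDSC from spleen, at 139 ± 84.1 CPM without (SD, n = 4) and 4.12 ± 2.48 CPM with it (SD, n = 3; log2 fold change -5.14, adjusted p = 0.00368), and in M-MDSC from spleen (-3.06, adjusted p = 0.00401). Cd209a in PMN-MDSC and Clec10a in M-MDSC of spleen also fell (log2 fold changes -6.20, adjusted p = 0.0178, and -1.84, adjusted p = 0.00571), so that 2 of 5 tested fell in each subset, and 1 rose in M-MDSC, Clec5a, named after its values were seen, against 11.6% of all genes called in PMN-MDSC and 19.6% in M-MDSC. Cd209a is also on the dendritic cell list. The macrophage sum was higher in tumor than in spleen and, with the dendritic cell sum, lower in treated splenic PMN-MDSC, as given above, and their part in these differences was not tested.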

How the data were processed

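RNA was sequenced from sorted MDSC and bulk tumors with a stranded total RNA kit without molecular identifiers. The authors aligned reads to mm10 with ContextMap on BWA, counted them by strand with featureCounts (Subread 1.4.6-p3) on Gencode genes, and deposited raw counts for 35 libraries. One column with 10 counts was left out, and 53274 of 53379 identifiers were paired with a symbol. Groups were taken from the sample labels, which the columns of the table match by group but not by mouse.

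Each comparison was fitted in edgeR 4.0.16 (R 4.3.3, limma 3.58.1) on its own libraries, for genes averaging 25 counts or more, with TMM scaling, robust quasi-likelihood F-tests, Benjamini-Hochberg adjustment over all genes tested and a threshold of 0.05. The code was tested on simulated data. Standard errors are the size of the log2 fold change divided by the square root of F. CPM were scaled over 34 libraries, and FPKM are CPM per kilobase of merged GENCODE exons. Tables and plots were made in Python 3.11.15 with pandas 2.3.3, numpy 2.4.6, scipy 1.17.1 and matplotlib 3.10.9. Alternatives were an adjusted p under 0.001 with at least a 2-fold change, RLE size factors, no filter on low counts, 1 fit over 34 libraries, DESeq2 1.42.0 and leaving out each library. Among 48 pairs of libraries of 1 group, counts differed by more than sampling noise in each (chi-square per degree of freedom 6.19 to 49.5), so all were kept as replicates. Depth covers counting error only, and libraries with fewer counts give less precise values.

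The members and lists were chosen with earlier results of these data known. The text names all 8 lectins, the 2 called genes with the smallest adjusted p of each pathway list in the treatment comparisons and in the organ and subset comparisons of untreated mice, from which examples are given, and the 3 genes most like each lectin. A few of the genes this rule names are not reported here.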

Additional observations from a re-analysis of the deposited data

Results flagged for a closer look

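Of 56 groups of 4 libraries, 3 held a library whose gap to the nearest other exceeded Dixon's critical value, where chance gives 2.8, or about 1 in 20. These were Clec4a1 at 113 CPM and Clec4a3 at 45.96 CPM, each in 1 M-MDSC library from untreated tumor, and Clec4n at 91.8 CPM in 1 M-MDSC library from treated spleen. Treatment effects differed by an interaction test for Clec4n in PMN-MDSC, by 2.69 on the log2 scale between tumor and spleen. In spleen they differed between M-MDSC and PMN-MDSC by 1.55 for Clec4e and by 3.66 for Clec4n.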

How the results depend on the processing

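Of 144 results for the lectins, 57 were called, and 0 of these changed direction in any alternative. Of 86 tested and not called, 26 changed sign in at least 1 alternative. Beyond the stricter threshold, 41 calls were kept in every alternative and 16 were lost in at least 1. Counts of lectins called follow. At an adjusted p under 0.001 and at least 2-fold, treatment gave 0 in splenic PMN-MDSC, 1 in splenic M-MDSC and 0 in both tumor subsets, tumor against spleen gave 2 in both untreated subsets and 0 in both treated ones, M-MDSC against PMN-MDSC gave 1 in untreated tumor and 1 in treated spleen, and the interactions for PMN-MDSC and for spleen gave 0. In 1 fit over 34 libraries, treatment gave 1 in splenic PMN-MDSC, 0 in tumor PMN-MDSC and 2 in tumor M-MDSC, tumor against spleen 3 in untreated and 4 in treated M-MDSC, the subsets 1 in untreated and 1 in treated tumor, and the interactions 1 for M-MDSC and 1 for spleen. With no filter on low counts, treatment gave 4 in tumor PMN-MDSC and 4 in tumor M-MDSC, treated M-MDSC 3 between organs, and the interactions 4 for M-MDSC and 4 for spleen. DESeq2 gave 3 and 3 for treatment in tumor PMN-MDSC and M-MDSC, 4 in treated M-MDSC between organs, 5 in untreated and 1 in treated tumor between subsets, and 2 for the M-MDSC interaction. The cause of these differences was not tested. Leaving out 1 library gave, for treatment, 1 to 2 and 1 to 3 in splenic PMN-MDSC and M-MDSC and 0 to 1 and 0 to 3 from tumor, for organs 5 to 6 and 6 to 7 in untreated and 2 to 3 and 0 to 2 in treated PMN-MDSC and M-MDSC, for subsets 6 to 7 and 1 to 3 in untreated spleen and tumor and 5 to 6 and 0 to 0 in treated ones, 8 to 8 for bulk tumor in both, and for interactions 1 to 1 in PMN-MDSC, 0 to 2 in M-MDSC, 2 to 3 in spleen and 0 to 0 in tumor. Levels scaled by library total stayed within 1 SD for 136 of the values and moved further for 8. No paired analysis was possible because the columns of the count table carry running numbers that no label ties to a mouse, and their order was not used to match them. Depth limits Clec4d in splenic M-MDSC and Clec4a3, Clec4d and Clec4e in bulk tumor, with 20 counts or fewer in their lowest groups.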
